A study of Mus musculus with 768 samples.

Results

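Otof, Casz1, Cacng5, Tshz1, Col11a1, Nxph4 and Adarb2 are known from mouse single-cell surveys as marker genes of spiny projection neurons that stand outside the ordinary D1 and D2 types. These 7 genes, taken by name, were followed among the 24489 genes of a read count table of single striatal nuclei. The nuclei came from 2 plates, both from untreated mice of the C57BL/6 background. One plate carries the genotype Oprm1-Cre:H2BG, in which Cre follows the mu opioid receptor gene. The other carries Slc32a1-Cre:H2BG, in which Cre follows the vesicular GABA transporter gene. H2BG is read here as a nuclear histone H2B fused to green fluorescent protein that depends on Cre. All 7 genes were in the table, and together they had 13335 reads in the 736 nuclei kept.

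Spiny projection neurons make up most of the striatum. D1 neurons carry the dopamine receptor gene Drd1 with Tac1, the substance P precursor, and D2 neurons carry Drd2, the adenosine receptor gene Adora2a and Penk, the enkephalin precursor. Eccentric spiny neurons are a small population that keeps the general spiny programme but expresses many genes that neither main type uses. Exopatch neurons are spiny neurons with patch genes that lie in the matrix around the patches. Casz1 and Tshz1 encode zinc finger transcription factors. Adarb2 encodes a brain protein of the RNA-editing deaminase family with no known editing activity of its own. Otof encodes otoferlin, a calcium sensor for vesicle release known from inner hair cells, and Cacng5 encodes an auxiliary subunit of AMPA receptors of the TARP family. Nxph4 encodes a neurexophilin, a secreted ligand of neurexins, and Col11a1 encodes a chain of a fibrillar collagen.

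RefSeq promoter windows on GRCm38.p6, which run from 250 bases before to 50 after a gene start, were at hand for 4 of the 7 genes. The windows shown belong to genes that were read together in several of the nuclei described below, and CCAAT or its reverse complement ATTGG, searched on both strands, is in capitals.
Adarb2, chr13:8202616-8202915, plus strand: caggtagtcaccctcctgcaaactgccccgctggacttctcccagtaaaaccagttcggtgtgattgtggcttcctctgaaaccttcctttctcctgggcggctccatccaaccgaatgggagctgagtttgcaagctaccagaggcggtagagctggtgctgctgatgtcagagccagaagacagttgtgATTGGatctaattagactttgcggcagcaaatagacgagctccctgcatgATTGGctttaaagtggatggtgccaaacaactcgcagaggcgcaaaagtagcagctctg
Cacng5, chr11:107915006-107915305, minus strand: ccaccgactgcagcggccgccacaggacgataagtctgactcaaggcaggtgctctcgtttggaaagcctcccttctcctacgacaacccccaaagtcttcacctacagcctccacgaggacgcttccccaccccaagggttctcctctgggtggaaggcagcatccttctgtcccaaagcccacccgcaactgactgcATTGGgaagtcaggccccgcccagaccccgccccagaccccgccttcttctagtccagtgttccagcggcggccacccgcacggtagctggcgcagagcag
Col11a1, chr3:114030290-114030589, plus strand: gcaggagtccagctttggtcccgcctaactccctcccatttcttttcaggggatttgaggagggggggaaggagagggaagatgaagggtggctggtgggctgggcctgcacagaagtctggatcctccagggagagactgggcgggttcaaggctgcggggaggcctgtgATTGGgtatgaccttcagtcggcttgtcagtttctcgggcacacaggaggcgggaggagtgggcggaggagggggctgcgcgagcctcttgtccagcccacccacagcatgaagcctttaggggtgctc
The 3 printed windows were chosen among those that hold CCAAT. A second Cacng5 window, chr11:107911313-107911612, held neither CCAAT nor GGGCGG on either strand. Of 2 Casz1 windows, both left out of the print, 1 also held CCAAT and neither held GGGCGG. All 3 windows printed held CCAAT in one direction or the other, as did 37.4% of 32851 mouse promoter windows. All 3 also held GGGCGG or its reverse complement, found in 35.7% of all windows. TATAAA, found in 13.6% of all windows on either strand, was in none of the 3. TAATTA, found in 5.29% of all windows, was in the Adarb2 window.

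In GENCODE vM21 on GRCm38, Adarb2 spans chr13:8202866-8768747, Cacng5 chr11:107874605-107915055 and Col11a1 chr3:114030540-114220718. Otof spans chr5:30367062-30461932, Casz1 chr4:148804429-148954889 and Nxph4 chr10:127525473-127534559. None of the annotated genes that overlap these was a row of the table.

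Wells with at least 20000 reads on genes and 1000 genes were kept. Median depth was 169398 reads in Oprm1-Cre nuclei and 175337 reads in Slc32a1-Cre nuclei. The labels name no animals, so each genotype counts as 1 sample, nuclei are not replicates, and no test between genotypes could be made. Intervals are exact 95% intervals, Poisson for summed reads and Clopper-Pearson for shares, and cover counting error only. Levels are summed reads per plate and class in counts per 1000000 (CPM). Xist had 2.83 CPM in Oprm1-Cre nuclei and 1888 CPM in Slc32a1-Cre nuclei, while the Y-linked Ddx3y had 79.2 CPM in Oprm1-Cre nuclei and no read in Slc32a1-Cre nuclei. Plate, animals, sex and genotype cannot be told apart.

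Nuclei were clustered without the 7 genes. Within clusters that carried spiny markers, a nucleus was called D1-like or D2-like when its mean log2(CPM + 1) over the D1 markers was more than 2 above or below that over the D2 markers, and intermediate in between. Of the Oprm1-Cre nuclei, 23 were D2-like and 24 intermediate, and most were D1-like. Of the Slc32a1-Cre nuclei, 16 were intermediate, and D1-like and D2-like nuclei were both common. A further cluster of 32 nuclei, led by interneuron markers, was mixed. In it, 4 Oprm1-Cre nuclei and 7 Slc32a1-Cre nuclei carried spiny markers with no marker list of another cell class, and are called spiny-marker nuclei. The other 5 Oprm1-Cre nuclei and 16 Slc32a1-Cre nuclei carried markers of another class and are called interneuron-marker nuclei. Of these, 4 of Oprm1-Cre and 15 of Slc32a1-Cre carried interneuron markers. This division used no read of the 7 genes, but was chosen after their values had been seen. To compare nuclei at equal depth, each was thinned to 50000 reads.

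The 7 genes were read together most often in the 11 spiny-marker nuclei. At 50000 reads, 2 or more of the 7 genes were read in 3 of 4 spiny-marker nuclei of Oprm1-Cre and in 7 of 7 of Slc32a1-Cre, and each of these 7 had at least 3. Otof, Col11a1 and Adarb2 were each read in 8 of the 11, a share of 72.7% with an interval of 39.03% to 93.98%. Cacng5, Tshz1 and Nxph4 were each read in 5 of the 11, and Casz1 in 2. Otof and Adarb2 were together in 7 nuclei, and Col11a1 was with Otof in 6 and with Adarb2 in 6. The nuclei had a median of 2586 genes in Oprm1-Cre and 3311 in Slc32a1-Cre, against 3763 genes in D1-like nuclei of Oprm1-Cre and 3546 in D1-like nuclei of Slc32a1-Cre. The median share of spike-in reads was 34.03% in spiny-marker nuclei and 24.03% in D1-like nuclei of Oprm1-Cre, and 24.2% against 21.7% in Slc32a1-Cre, and its part in the result was not tested.

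Reads of single nuclei show how the combinations differed. In all reads, 1 Slc32a1-Cre spiny-marker nucleus carried all 7 genes, with 79 reads of Otof, 12 of Casz1, 32 of Cacng5, 36 of Tshz1, 38 of Col11a1, 9 of Nxph4 and 67 of Adarb2. Another was led by Otof at 1118 CPM, with 39 reads of Adarb2 and 18 of Nxph4, and had no read of the other members. Yet another was led by Col11a1 at 1010 CPM, beside 36 reads of Nxph4 and 24 of Cacng5, and had no read of Otof or Adarb2. No single combination was shared by the 7 nuclei. In Oprm1-Cre, 1 nucleus paired Cacng5 at 794.5 CPM with 87 reads of Otof, and another paired 80 reads of Tshz1 with 35 of Col11a1. A further Oprm1-Cre nucleus had 26 reads of Adarb2 and 2 of Col11a1, and the last had no read of any of the 7. That nucleus had a D1 minus D2 score of 3.76 and a patch minus matrix score of -4.13, on the side of matrix genes.

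**Figure D1:**
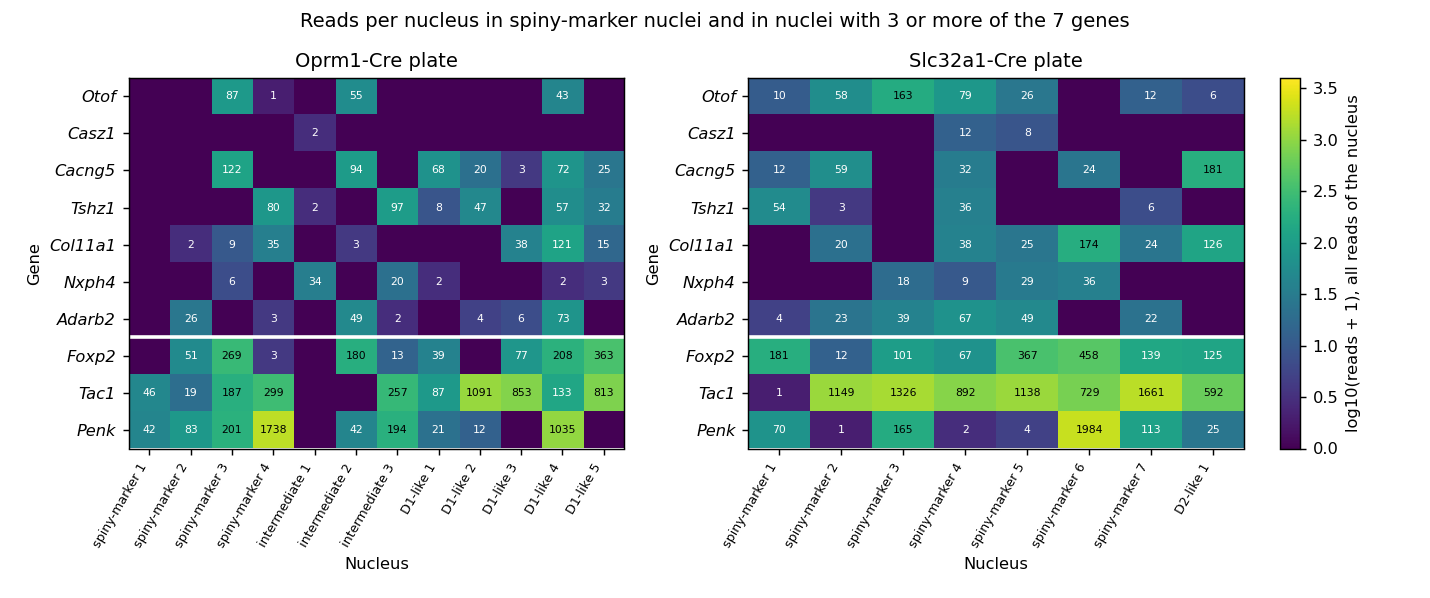
Reads per nucleus (colour: log10 of reads + 1; printed: reads, blank for 0) of the 7 genes and of Foxp2, Tac1 and Penk, in the spiny-marker nuclei and in D1-like, D2-like and intermediate nuclei with 3 or more of the 7 genes at 50000 reads, in the Oprm1-Cre plate (left) and the Slc32a1-Cre plate (right). The 7 Slc32a1-Cre spiny-marker nuclei are filled by different combinations, and 1 of them holds all 7 genes.

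The spiny-marker nuclei carried some genes of the D1 list and some of the D2 list, and lacked reads of others. Their D1 minus D2 score had a median of 0.88 in the 4 Oprm1-Cre nuclei and 0.13 in the 7 Slc32a1-Cre nuclei, against 4.78 in D1-like nuclei of Oprm1-Cre and 4.27 in D1-like nuclei of Slc32a1-Cre. Drd1 and Tac1 were read in all 11. Penk was also read in all 11, with 42 to 1738 reads per nucleus in Oprm1-Cre and 1 to 1984 in Slc32a1-Cre. In 3 of the Slc32a1-Cre nuclei it had only 1 to 4 reads, and most D1-like nuclei of either plate had a Penk read as well. Drd2 had no read in the 4 Oprm1-Cre nuclei and was read in 4 of the 7 Slc32a1-Cre nuclei. The D1 markers Eya1 and Sfxn1 had no read in the 11. Isl1 was read in 1 nucleus, of Slc32a1-Cre, and Ebf1 in 1 of Oprm1-Cre. The D2 markers Adora2a and Sp9 had no read in Oprm1-Cre, and were read in 4 and 2 of the 7 of Slc32a1-Cre. Grik3 was read in 1 nucleus of each plate. The D1 marker Slc35d3 and the D2 markers Gpr6 and Gpr52 were read in some nuclei of both plates. Meis2, a spiny marker, was read in all 11, and Ppp1r1b, the gene of DARPP-32, in 3 of the 4 Oprm1-Cre nuclei and in the 7 Slc32a1-Cre nuclei. Of the genes on the interneuron lists, Sst, Cck and Chat had reads in the 11, and Npy, Nos1, Chodl, Pvalb, Lhx6 and the rest had none. Since the nuclei were picked for spiny markers and against the lists of other classes, these reads largely restate the choice. Sst was read in 1 nucleus, of Oprm1-Cre, with 32 reads, and Chat in 1 of Slc32a1-Cre. Cck, the cholecystokinin gene, had 1.98 CPM in spiny-marker nuclei and 14.6 CPM in D1-like nuclei of Oprm1-Cre. In Slc32a1-Cre it was read in 4 of the 7 and had 57.3 CPM in spiny-marker nuclei, against 9.36 CPM in D1-like nuclei. None of the 11 met the rules for a possible doublet, which marked 34 nuclei in all. The rule for markers of 2 classes could not mark them, given how they were picked.

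Within each plate, spiny-marker nuclei were set against D1-like nuclei. Otof had 174.3 CPM (interval 139.8 to 214.7) in spiny-marker nuclei of Oprm1-Cre, against 8.20 CPM (7.47 to 8.995) in D1-like nuclei. In Slc32a1-Cre it had 350 CPM (314.2 to 388.7) in spiny-marker nuclei, against 3.69 CPM (3.08 to 4.38) in D1-like nuclei. These intervals of summed Otof reads were far apart in both plates, but they leave out differences between nuclei. By share of nuclei with an Otof read, without thinning, the intervals overlapped in Oprm1-Cre. They were 6.76% to 93.2% in spiny-marker nuclei, where 2 of 4 had a read, and 2.335% to 7.32% in D1-like nuclei. In Slc32a1-Cre they were apart, at 42.1% to 99.6% in spiny-marker nuclei and 1.46% to 7.29% in D1-like nuclei. Col11a1 had 91.1 CPM (66.7 to 121.5) in spiny-marker nuclei and 12.98 CPM (12.05 to 13.97) in D1-like nuclei of Oprm1-Cre. In Slc32a1-Cre it had 282.6 CPM in spiny-marker nuclei and no read in any D1-like nucleus, which is at least 3321-fold higher against a limit of 3 reads over the D1-like group. Adarb2 had 57.4 CPM in spiny-marker nuclei and 13.3 CPM in D1-like nuclei of Oprm1-Cre, and 205.1 CPM against 5.33 CPM in Slc32a1-Cre. Nxph4 had 11.9 CPM in spiny-marker nuclei and 2.28 CPM in D1-like nuclei of Oprm1-Cre, and 92.5 CPM against 4.11 CPM in Slc32a1-Cre. These levels rest on few nuclei: in Oprm1-Cre a single nucleus gave 98.9% of the Otof reads and all of those of Cacng5 and Tshz1.

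Log2 ratios were taken with 5 CPM added to each side, for genes with at least 5 CPM on either side. The ratio was above 0.5 for 6 of 6 members measured in Oprm1-Cre, with a median of 2.05, where 22.1% of all genes measured were above 0.5 and 65.1% below -0.5. It was above 0.5 for 7 of 7 in Slc32a1-Cre, with a median of 3.42, where 26.1% of all genes were above and 50.1% below. The median over all genes was -1.40 in Oprm1-Cre and -0.51 in Slc32a1-Cre. Nxph4 in both plates, and Otof, Casz1 and Col11a1 in Slc32a1-Cre, reached 5 CPM through the spiny-marker side alone, so that they had to lie on that side. Casz1 was not measured in Oprm1-Cre, with no read in spiny-marker nuclei.

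**Figure D2:**
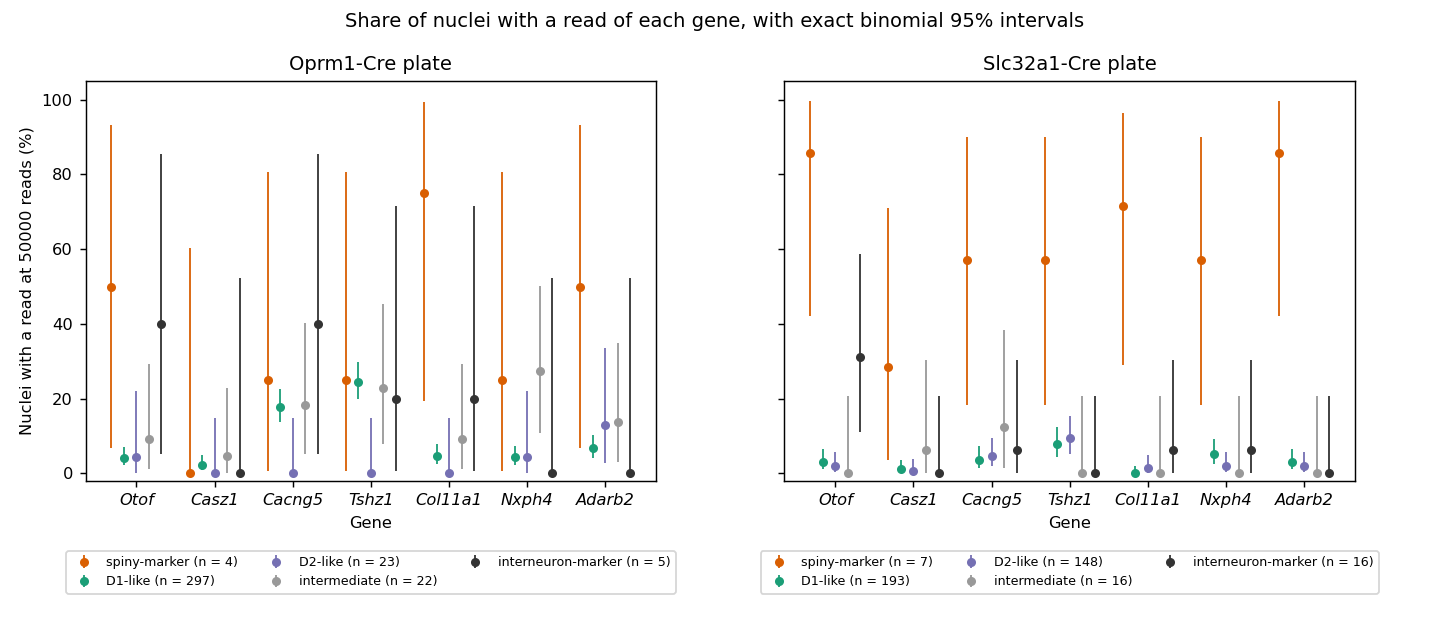
Share of nuclei with a read at 50000 reads (percent) for each of the 7 genes, by set of nuclei, in the Oprm1-Cre plate (left) and the Slc32a1-Cre plate (right); points are shares and bars exact binomial 95% intervals. The spiny-marker points of Slc32a1-Cre stand above the D1-like and D2-like points for all 7 genes, while in Oprm1-Cre the intervals are wide and Casz1 is at 0.

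Foxp2 is a transcription factor gene also named for such neurons. It was read in 3 of the 4 Oprm1-Cre spiny-marker nuclei and in all 7 of Slc32a1-Cre. In 1 of the Oprm1-Cre nuclei it had only 3 reads. Most D1-like nuclei of either plate had a Foxp2 read as well, so its presence does not set spiny-marker nuclei apart. The Foxp2 level was 639.6 CPM in spiny-marker nuclei and 296.6 CPM in D1-like nuclei of Oprm1-Cre, and 1332 CPM against 244.3 CPM in Slc32a1-Cre. Of the 10 further marker genes of eccentric or hybrid spiny neurons, 5 were measured in Oprm1-Cre, with 4 above 0.5 and 1 below -0.5. Of all genes there, 22.1% were above and 65.1% below, and in Slc32a1-Cre 26.1% and 50.1%. In Slc32a1-Cre 6 of the 10 were measured, with 5 above 0.5 and 1 below -0.5. Most of these reached 5 CPM on one side alone and so had to lie on that side: Pcdh8 and Chst9 in Oprm1-Cre and Pcdh8, Cpne4, Agtr1a and Htr4 in Slc32a1-Cre through spiny-marker nuclei, and Htr4 in Oprm1-Cre and Grm8 in Slc32a1-Cre through D1-like nuclei. Agtr1a, the angiotensin receptor gene, was read in 4 of the 7 Slc32a1-Cre spiny-marker nuclei at 94.5 CPM, against 2.30 CPM in D1-like nuclei, and had no read in the 4 of Oprm1-Cre. Pcdh8, a protocadherin gene, and Chst9, a sulfotransferase gene, each came from 1 nucleus in Oprm1-Cre, and Pcdh8 again from 1 in Slc32a1-Cre.

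Relatives of the 7 genes were looked at by list. Of 11 AMPA receptor and auxiliary subunit genes, 9 were measured in each plate. In Oprm1-Cre, Cnih2 and Cnih3 were above 0.5 in spiny-marker over D1-like nuclei, and the TARP genes Cacng2, Cacng3 and Cacng4 below -0.5. Of these, Cacng2 and Cacng4 reached 5 CPM through D1-like nuclei alone and so had to be lower in spiny-marker nuclei. Cnih3 was read in only 1 spiny-marker nucleus of each plate. In Slc32a1-Cre, Cacng4, Cnih2 and Cnih3 were above 0.5, and Gria1, Cacng2 and Cacng3 below -0.5. Beside these, 22.1% of all genes were above 0.5 and 65.1% below -0.5 in Oprm1-Cre, and 26.1% and 50.1% in Slc32a1-Cre. Adar, an active editing enzyme gene, had 5.94 CPM in spiny-marker nuclei and 99.6 CPM in D1-like nuclei of Oprm1-Cre, and 29.2 CPM against 95.96 CPM in Slc32a1-Cre. Adarb1, the other active one, had 61.4 CPM against 80.2 CPM in Oprm1-Cre and 3.02 CPM against 56.5 CPM in Slc32a1-Cre. The teashirt genes Tshz2 and Tshz3 and the neurexophilin genes Nxph1, Nxph2 and Nxph3 had no read in the 11 spiny-marker nuclei.

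More D1-like nuclei had 2 or more of the 7 genes in the Oprm1-Cre plate. At 50000 reads, 2 or more of the 7 were read in 42 D1-like nuclei of Oprm1-Cre, or 14.1% with an interval of 10.4% to 18.6%, against 5 of Slc32a1-Cre, or 2.59% with an interval of 0.846% to 5.94%. The intervals did not overlap. Without thinning, the shares were 18.7% in Oprm1-Cre and 5.67% in Slc32a1-Cre. At 50000 reads, 3 or more were read in 5 D1-like nuclei of Oprm1-Cre, or 1.68%, and in none of Slc32a1-Cre, with an interval of up to 1.89%. These counts were near what the single shares of the genes give. That number was 36.65 nuclei with 2 or more in Oprm1-Cre and 3.92 in Slc32a1-Cre, and 4.56 nuclei with 3 or more in Oprm1-Cre.

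Cacng5 was read in 53 D1-like nuclei of Oprm1-Cre, or 17.8% (13.7% to 22.7%), against 7 of Slc32a1-Cre, or 3.63% (1.47% to 7.33%). Its level was 54.5 CPM (52.6 to 56.5) in Oprm1-Cre and 16.5 CPM (15.1 to 17.8) in Slc32a1-Cre, a log2 ratio of 1.47. Tshz1, which lies on chromosome 18, was read in 73 Oprm1-Cre D1-like nuclei, or 24.6% (19.8% to 29.9%), and in 15 of Slc32a1-Cre, or 7.77% (4.42% to 12.5%). Its level was 34.5 CPM in Oprm1-Cre and 10.1 CPM in Slc32a1-Cre, a log2 ratio of 1.39. For both genes the shares of the plates had intervals that did not overlap. Interneuron-marker nuclei also had reads of both genes: Cacng5 was read in 2 of 5 of Oprm1-Cre (5.27% to 85.3%) and 1 of 16 of Slc32a1-Cre, and Tshz1 in 1 of 5 of Oprm1-Cre and 0 of 16 of Slc32a1-Cre. In Oprm1-Cre these shares of 5 nuclei could not be told apart from those of D1-like nuclei. The levels there were 17.8 CPM for Cacng5 and 2.09 CPM for Tshz1, and 3 of the 5 nuclei were marked as possible doublets. Median depths were 190976 reads in these 5 nuclei and 169806 reads in D1-like nuclei of Oprm1-Cre. Reads of both genes were spread over nuclei: in Oprm1-Cre the richest nucleus gave 8.14% of the Cacng5 reads and 7.18% of the Tshz1 reads.

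Col11a1 was read in 14 D1-like nuclei of Oprm1-Cre, or 4.71%, and in none of Slc32a1-Cre, where the level was at least 152.6-fold lower against a limit of 3 reads over the group. Adarb2 had 13.3 CPM (12.4 to 14.3) in D1-like nuclei of Oprm1-Cre and 5.33 CPM (4.597 to 6.15) in those of Slc32a1-Cre, a log2 ratio of 0.83. Otof had 8.20 CPM in Oprm1-Cre and 3.69 CPM in Slc32a1-Cre, a log2 ratio of 0.60, but its shares of 4.04% in Oprm1-Cre and 3.11% in Slc32a1-Cre lay within each other's intervals. With each nucleus classed alone by its markers the Otof ratio was -0.056, and with wells of at least 100000 reads it was -0.049. Nxph4 had 2.28 CPM in Oprm1-Cre and 4.11 CPM in Slc32a1-Cre, and Casz1 had 1.32 CPM in Oprm1-Cre and 0.851 CPM in Slc32a1-Cre, both under the minimum of 5 CPM. The 5 genes measured were all above 0.5, with a median log2 ratio of 1.39, beside 14.9% of all genes above 0.5 and 12.2% below -0.5. Otof and Col11a1 reached 5 CPM through Oprm1-Cre alone, so that neither could have been below -0.5. With each nucleus classed alone, or with 20 CPM added in place of 5, 3 of the 7 genes were above 0.5.

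Patch genes differed in the same comparison, where 14.9% of all genes were above 0.5 and 12.2% below -0.5. Of 9 patch genes, 8 were measured in D1-like nuclei, and 7 were above 0.5 in Oprm1-Cre over Slc32a1-Cre, among them Oprm1, Sema5b and Kremen1. Oprm1 and Bach2 reached 5 CPM through Oprm1-Cre alone, so that neither could have been below -0.5. Of 7 matrix genes, 5 were below -0.5, among them Id4 and Epha4. Their part in the ratios of the 7 genes was not tested. Within each plate, D1-like nuclei with a Tshz1 read had higher patch minus matrix scores, differences of mean log2(CPM + 1). The median was 1.32 with Tshz1 and 0.37 without in Oprm1-Cre, and -1.05 with and -3.38 without in Slc32a1-Cre. Sema5b, a semaphorin gene of patches, was read in 75.3% (63.9% to 84.7%) of the D1-like nuclei with Tshz1 and in 57.1% (50.4% to 63.7%) of those without in Oprm1-Cre. In Slc32a1-Cre it was read in 53.3% (26.6% to 78.7%) with Tshz1 and in 10.1% (6.10% to 15.5%) without. The intervals were apart in both plates, though in Oprm1-Cre only just, at 63.86% against 63.71%. Sema5b was also the gene most like Tshz1 in these data. For each other patch gene of the 9 the intervals overlapped in both plates. Kremen1 in Oprm1-Cre had 36.1% to 59.96% with Tshz1 and 25.7% to 38.2% without. Tshz1 was not alone in the higher score: the median score was also higher with Col11a1 in Oprm1-Cre, at 1.40 against 0.66 without. In Slc32a1-Cre it was higher in the 7 nuclei with Cacng5, at 0.15 against -3.23 without. Otof went the other way in Oprm1-Cre, with a median score of -0.89 in its 12 nuclei and 0.86 in those without it. Medians were also lower with Casz1, Cacng5, Nxph4 and Adarb2 in Oprm1-Cre, and with Otof, Nxph4 and Adarb2 in Slc32a1-Cre.

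Spiny-marker nuclei were set against D1-like nuclei for the same lists. Of all genes measured, 22.1% were above 0.5 and 65.1% below -0.5 in Oprm1-Cre, and 26.1% and 50.1% in Slc32a1-Cre. In Oprm1-Cre, 1 of 8 patch genes measured was above 0.5 and 6 below -0.5, and 2 of 7 matrix genes were above and 4 below. In Slc32a1-Cre, 4 of 7 patch genes measured were above 0.5, namely Sema5b, Lypd1, Nnat and Bach2, and 2 below -0.5, while 1 of 7 matrix genes was above and 6 below. Bach2 reached 5 CPM there through spiny-marker nuclei alone. Kremen1 and the matrix genes Id4, Calb1, Sv2b, Gda and Zfhx3 reached it there through D1-like nuclei alone, and so had to be lower in spiny-marker nuclei. In Oprm1-Cre the same held for the patch genes Oprm1, Kremen1, Nnat and Bach2 and for the matrix gene Zfhx3. Sema5b had 178.2 CPM in spiny-marker nuclei and 209.9 CPM in D1-like nuclei of Oprm1-Cre, and 1007 CPM against 32.6 CPM in Slc32a1-Cre. The median patch minus matrix score was 1.32 in spiny-marker nuclei and 0.81 in D1-like nuclei of Oprm1-Cre, and 0.99 against -3.21 in Slc32a1-Cre. The patch genes Oprm1 and Kremen1 had no read in any of the 11. Most D1-like nuclei of either plate also had no Oprm1 read, and most had no Kremen1 read. With so few spiny-marker nuclei, the lack of these reads does not set them apart.

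Among D2-like nuclei, of which Oprm1-Cre held 23, 1 of the 23 had 2 of the 7 genes, or 4.35% (0.110% to 21.9%), against 4 of Slc32a1-Cre, or 2.70% (0.741% to 6.78%). No difference in this share was detectable at these numbers. Cacng5 had no read in D2-like nuclei of Oprm1-Cre, against 790 reads or 26.7 CPM in Slc32a1-Cre, and so was at least 35.7-fold lower against a limit of 3 reads over the Oprm1-Cre group. The 790 reads came from 10 nuclei, of which 1 gave 36.8%. Since the interval of 0 of 23 nuclei reaches 14.8% and the Slc32a1-Cre share was 4.73%, the shares could not be told apart. Tshz1 had 1 read in Oprm1-Cre and 483 in Slc32a1-Cre, where 9.46% of D2-like nuclei had it. Col11a1 had 3 reads in Oprm1-Cre and 401 in Slc32a1-Cre, all of them from 2 nuclei. Adarb2 had 9.71 CPM in Oprm1-Cre and 6.96 CPM in Slc32a1-Cre, with a log2 ratio of 0.30 whose interval of -0.12 to 0.73 includes 0. Of the 4 genes measured, 0 were above 0.5 and 3 below -0.5, beside 23.1% of all genes above and 29.9% below. Those 3, Cacng5, Tshz1 and Col11a1, reached 5 CPM through Slc32a1-Cre alone and so had to be lower in Oprm1-Cre. The Cacng5 ratio was -0.43 with a score limit of 1, and the Col11a1 ratio was 0.50 with wells of at least 100000 reads.

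**Figure D3:**
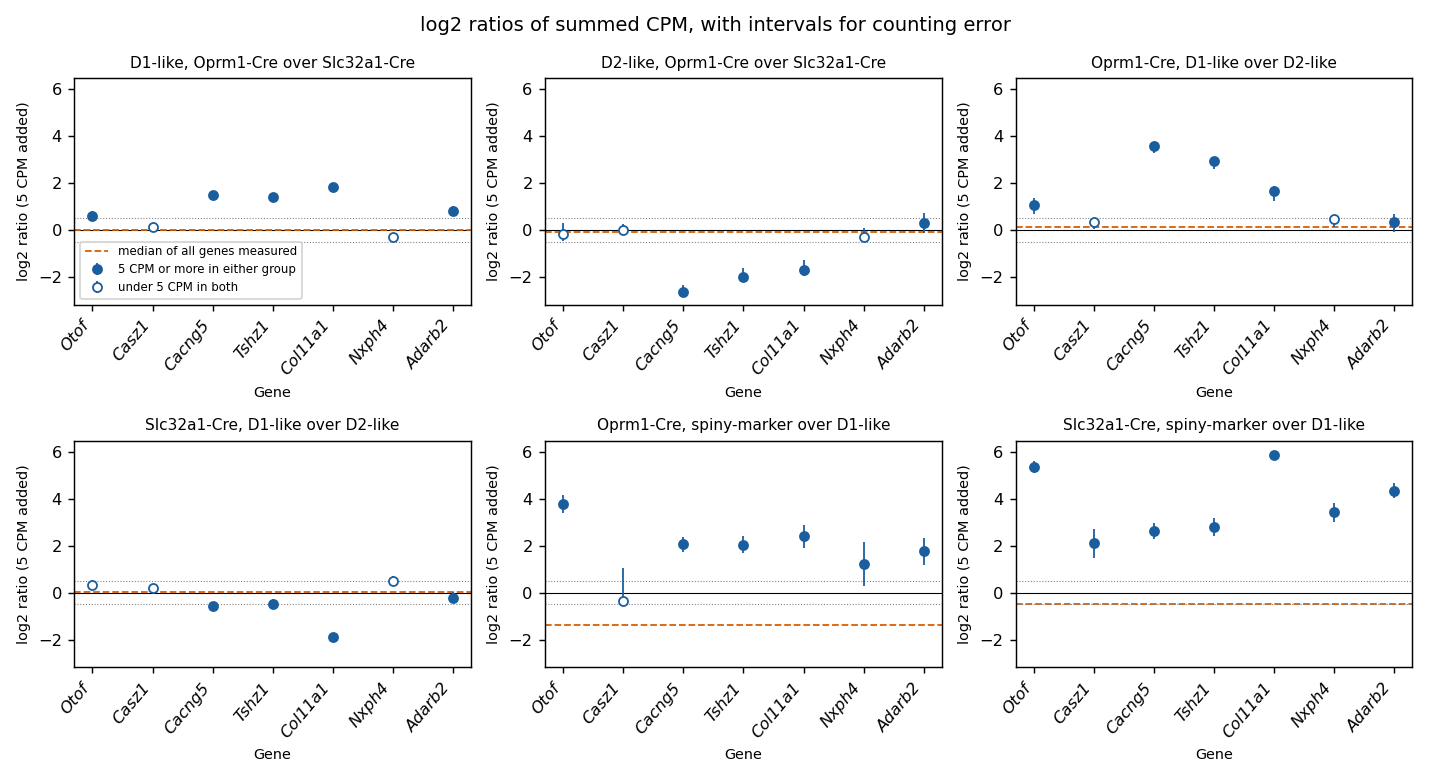
log2 ratios of summed CPM (5 CPM added to each side) of the 7 genes in 6 comparisons, with bars for counting error; filled points are genes with at least 5 CPM on either side, open points the others, the dashed line is the median of all genes measured and dotted lines mark 0.5 and -0.5. In Oprm1-Cre over Slc32a1-Cre, Cacng5, Tshz1 and Col11a1 lie above 1 in D1-like nuclei and below -1 among D2-like nuclei. Among D2-like nuclei these genes reached 5 CPM through Slc32a1-Cre alone and so had to be lower in Oprm1-Cre. Col11a1 in D1-like nuclei reached it through Oprm1-Cre alone.

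Within the Oprm1-Cre plate, 4 of 5 genes measured were above 0.5 in D1-like over D2-like nuclei and 0 below, where 31.3% of all genes were above 0.5 and 19.1% below -0.5. Those 4, Otof, Cacng5, Tshz1 and Col11a1, reached 5 CPM in D1-like nuclei alone and so had to be higher there. Cacng5 had 54.5 CPM in D1-like nuclei and no read in D2-like nuclei, at least 72.98-fold higher against 3 reads over the D2-like group. Within the Slc32a1-Cre plate, which held many D2-like nuclei, Cacng5 had 16.5 CPM in D1-like nuclei and 26.7 CPM in D2-like nuclei. Tshz1 had 10.1 CPM in D1-like nuclei and 16.3 CPM in D2-like nuclei, a log2 ratio of -0.50 that stopped just short of the limit. The shares of Cacng5 were 3.63% in D1-like nuclei and 4.73% in D2-like ones, and those of Tshz1 were 7.77% and 9.46%, each pair within its intervals. Of 4 genes measured in Slc32a1-Cre, 0 were above 0.5 and 2, Cacng5 and Col11a1, below -0.5, beside 14.8% of all genes above and 10.4% below. Col11a1 reached 5 CPM through D2-like nuclei alone.

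Intermediate nuclei were few and mixed. Of the 24 of Oprm1-Cre, 8 carried spiny markers alone and 14 carried interneuron markers. Of the 16 of Slc32a1-Cre, 13 carried spiny markers alone and 2 interneuron markers. At 50000 reads, 6 of 22 intermediate nuclei of Oprm1-Cre had 2 or more of the 7 genes, or 27.3% (10.7% to 50.2%), against 0 of 16 of Slc32a1-Cre, with an interval of up to 20.6%. Among those with spiny markers alone, it was 2 of 7 in Oprm1-Cre and 0 of 13 in Slc32a1-Cre. All 3 intermediate nuclei with 3 or more were of Oprm1-Cre and carried markers of another class. One had 55 reads of Otof, 94 of Cacng5, 49 of Adarb2 and 3 of Col11a1, and also stood out for astrocyte genes. The other two, led by Tshz1 with 97 reads and by Nxph4 with 34, stood out for interneuron genes. Nxph4 was read in 6 of 15 Oprm1-Cre intermediate nuclei with markers other than spiny ones and in none of the 7 with spiny markers alone.

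D1-like, D2-like and spiny-marker nuclei, with the intermediate nuclei that carried spiny markers alone, are called spiny nuclei below. Of these, 3 or more of the 7 genes were read in 7 of Oprm1-Cre, or 2.11%, of which 2 were spiny-marker nuclei, and in 8 of Slc32a1-Cre, or 2.22%, of which 7 were. By score, 8 of the 29 spiny nuclei of both plates within 2 of zero had 3 or more, or 27.6% (12.7% to 47.2%), against 7 of the 663 farther out, or 1.06% (0.426% to 2.16%). All 8 near zero were spiny-marker nuclei, and none of the intermediate nuclei with spiny markers alone had 3 or more. In Oprm1-Cre, 2 of 10 near zero had them and 1.56% of those farther out. In Slc32a1-Cre, 6 of 19 near zero had them and 0.585% of those farther out. The fullest D1-like nucleus, of Oprm1-Cre, had Col11a1 at 464.8 CPM, with 73 reads of Adarb2, 72 of Cacng5, 57 of Tshz1, 43 of Otof and 2 of Nxph4. It carried 454 reads of Drd1 beside 1035 of Penk, and its score of 2.32 was just inside the D1-like class. The single D2-like nucleus with 3, of Slc32a1-Cre, had Cacng5 at 1645 CPM and Col11a1 at 1145 CPM, with 6 reads of Otof, and also carried oligodendrocyte genes.

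**Figure D4:**
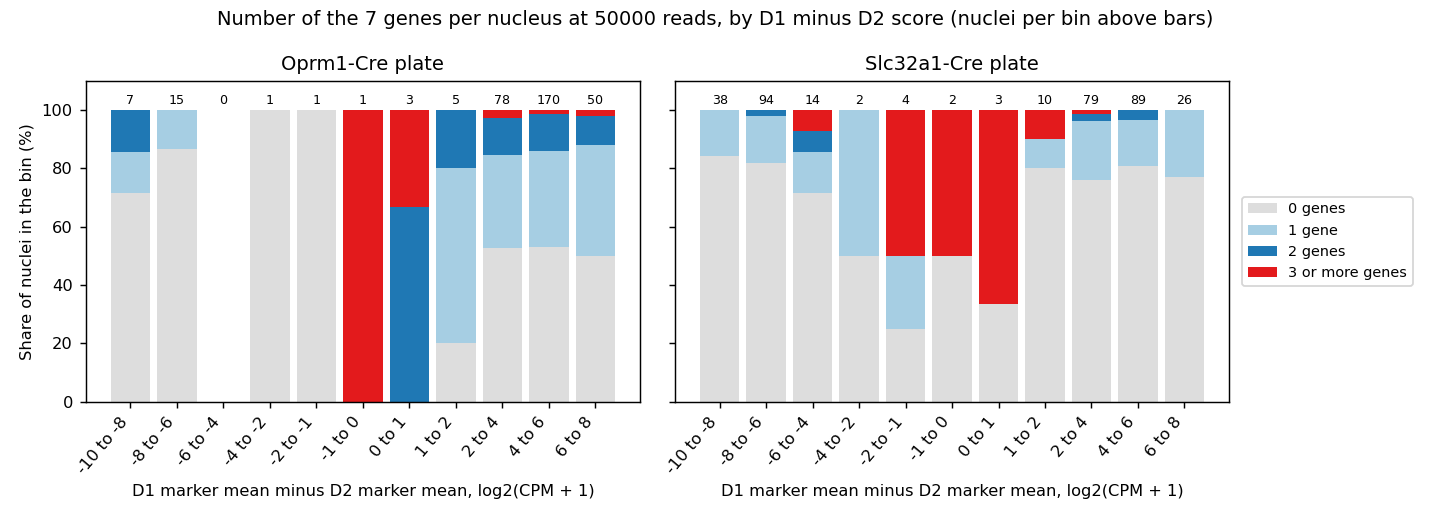
Share of spiny nuclei (percent, stacked) with 0, 1, 2 or 3 and more of the 7 genes at 50000 reads, by bins of the D1 marker mean minus the D2 marker mean on the log2(CPM + 1) scale, in the Oprm1-Cre plate (left) and the Slc32a1-Cre plate (right), with the nuclei per bin above the bars. The bins within 2 of zero, where 8 of 29 nuclei had 3 or more, all 8 of them spiny-marker nuclei, hold 1 to 10 nuclei each.

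Pairs of genes were described by the nuclei that held both, over the number that the product of the single shares gives. Among the spiny nuclei of Slc32a1-Cre, 19 of 21 pairs were at 2 or more times the product and each pair was met at least once, with a median ratio of 5.66. Of the 7 genes paired with every other gene read in at least 5% of the nuclei, 6.71% of pairs reached that ratio. Those other genes are no like measure, since Otof, Casz1, Col11a1, Nxph4 and Adarb2 were each read in less than 5% of these nuclei. For such rare genes a few shared nuclei pass the ratio: Casz1 and Col11a1 shared 2 where the product gives 0.116. This limit holds for all shares of pairs with other genes given below. Otof and Adarb2 were together in 6 nuclei where 15 had Otof and 15 had Adarb2, a ratio of 9.63. Otof and Tshz1 were also together in 6, a ratio of 4.38. The spiny-marker nuclei carried much of this count. In D1-like, D2-like and intermediate nuclei of Slc32a1-Cre, 6 of 21 pairs reached the ratio, 13 were never met, and 8.42% of pairs with other genes reached it. With spiny-marker nuclei put in the classes by their score, an alternative chosen after seeing the data, it was 19 of 21. In D1-like nuclei of Slc32a1-Cre alone it was 3 of the 15 pairs that could be formed without Col11a1, beside 9.66%.

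Among the spiny nuclei of Oprm1-Cre, 7 of 21 pairs were at 2 or more times the product, with a median ratio of 1.36, beside 3.25% of pairs with other genes. The other genes were again read in at least 5% of the nuclei, and Otof, Casz1 and Nxph4 in fewer. Otof with Col11a1 stood highest, with 4 nuclei and a ratio of 4.87. In D1-like, D2-like and intermediate nuclei of Oprm1-Cre the count was 6 of 21 beside 3.33%, and in D1-like nuclei alone 5 of 21 beside 4.01%. Cacng5 and Tshz1, the pair met most often, were together in 17 D1-like nuclei where the product of shares gives 13.03, a ratio of 1.31. Otof and Tshz1 were together in 1 D1-like nucleus of Oprm1-Cre, where the product gives 2.95. Most of these ratios rest on 1 to 6 nuclei, and another random thinning gave 3 pairs in place of 6 in D1-like, D2-like and intermediate nuclei of Oprm1-Cre.

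**Figure D5:**
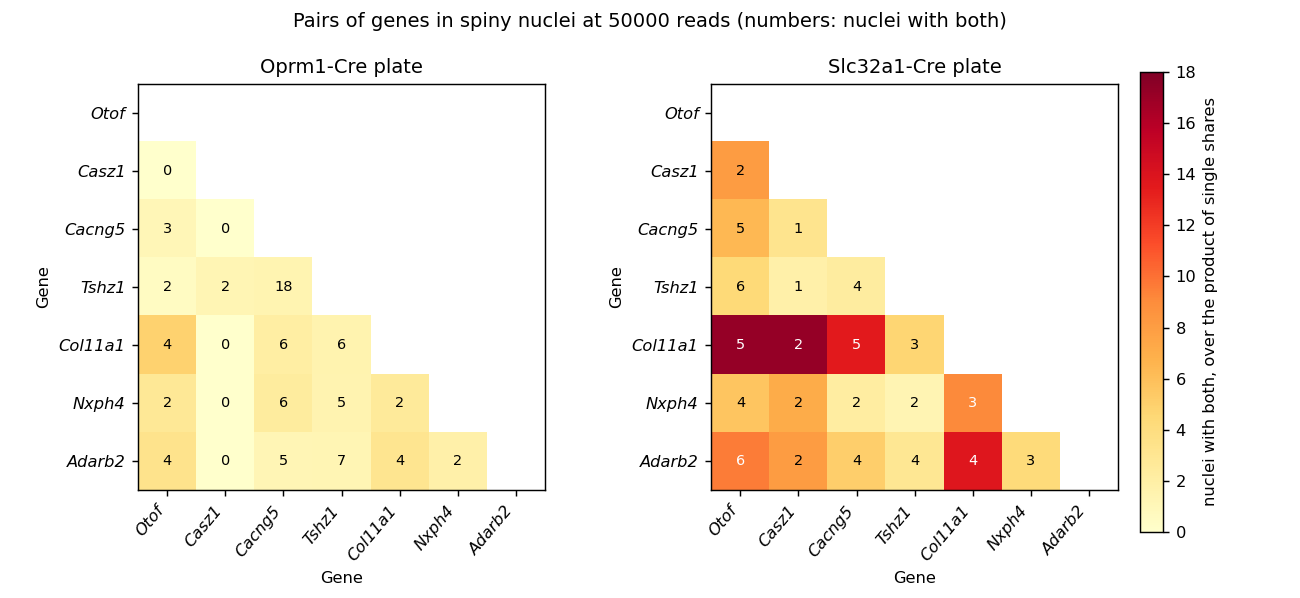
Pairs of the 7 genes in spiny nuclei at 50000 reads: the printed number is the count of nuclei with both genes and the colour is that count over the product of the single shares, in the Oprm1-Cre plate (left) and the Slc32a1-Cre plate (right). Pairs of Col11a1 with Otof, Casz1, Cacng5 and Adarb2 in Slc32a1-Cre have the deepest colours, and the 18 nuclei with Cacng5 and Tshz1 in Oprm1-Cre have a pale one.

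Otof was also read outside the spiny nuclei. Interneuron-marker nuclei had 80 Otof reads in Oprm1-Cre, or 83.5 CPM, and 58.3 CPM (50.2 to 67.3) in Slc32a1-Cre. In Slc32a1-Cre, 4 nuclei with 80, 49, 42 and 13 Otof reads had between 2266 and 7876 reads of Sst, the somatostatin gene, and between 4612 and 7649 of Npy, the neuropeptide Y gene. An Oprm1-Cre nucleus with 62 Otof reads had 5783 of Sst and 13556 of Npy. Of these 5 nuclei, 3 were marked as possible doublets. Adarb2 and Tshz1 had no read in the 16 interneuron-marker nuclei of Slc32a1-Cre, and 8 and 2 reads in the 5 of Oprm1-Cre. Col11a1 had 83 reads in those 5, of which a single nucleus gave 98.8%.

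Likeness to other genes was weak. Over D1-like, D2-like and intermediate nuclei, the highest mean Pearson r of log2(CPM + 1) with any of 10503 genes was between 0.17 and 0.26 for the 7 genes. Col11a1 was most like Cacng5, with r of 0.09 in Oprm1-Cre and 0.43 in Slc32a1-Cre, where the 2 D2-like nuclei with Col11a1 also had Cacng5. Tshz1 was most like Sema5b, with 0.18 in Oprm1-Cre and 0.23 in Slc32a1-Cre, followed by Rab3c and Anp32e. Camk2d, Luzp2 and Runx2 led for Otof, Fxyd6, Slc8a1 and Cd83 for Casz1, and Ptprg, Slitrk1 and Chrd for Cacng5. Igsf3, Snora43 and Endod1 led for Nxph4, and Plekhb1 and Tomm6 were among the first for Adarb2. The nuclei of each plate are 1 library set, the counts are sparse, and these correlations are a description only.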

How the data were processed

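Single striatal nuclei of 1 plate of 384 wells per genotype were analysed. The authors' deposited table gives whole-number read counts per gene and well. Per the submitters' processing notes, SAMtools and Seurat were used with mm10, and no counter or strand setting is named in the sources used here. No molecular identifiers are recorded, so reads are not molecules. The 92 spike-ins and the reporter row stayed out of totals. The 7 genes and all lists were chosen with earlier results of these data known. Of the wells, 355 of Oprm1-Cre and 381 of Slc32a1-Cre passed the minimum of 20000 reads and 1000 genes. Log values of 2000 variable genes, without the 7 genes, were reduced to 30 components and clustered (15 neighbours; leidenalg 0.10.2, resolution 1). Clusters were named from marker lists, and nuclei of the mixed cluster from their own markers. Oprm1-Cre had 299 D1-like nuclei, and Slc32a1-Cre had 194 D1-like and 148 D2-like nuclei. Possible doublets were marked and kept. Thinning to 50000 reads left 297 D1-like nuclei of Oprm1-Cre and 193 of Slc32a1-Cre, and 331 spiny nuclei of Oprm1-Cre and 361 of Slc32a1-Cre. Likeness used 342 Oprm1-Cre and 357 Slc32a1-Cre nuclei. With 1 sample per genotype no p-value was computed. The log2 ratio was tested on simulated data. Named genes were the 7, the 3 with the highest mean r for each, and examples from the lists; single nuclei were picked after their values were seen. Python 3.11.15, numpy 2.4.6 and scipy 1.17.1 were used. Alternatives changed depth, seed, detection, score limit, well filter, doublets, classing, pseudocount, scaling, the minimum level and the weight of nuclei.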

Additional observations from a re-analysis of the deposited data

Results flagged for a closer look

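For 3 genes the Oprm1-Cre over Slc32a1-Cre log2 ratio had opposite signs in the 2 spiny types, and the difference was not tested. In D2-like nuclei all 3 reached 5 CPM through Slc32a1-Cre alone, and Col11a1 in D1-like nuclei through Oprm1-Cre alone. Those signs were thus set by the minimum level. The interval of 0 of 23 nuclei for Cacng5 reached 14.8%, so its D2-like shares could not be told apart between the plates. Cacng5 had 1.47 in D1-like nuclei and -2.66 in D2-like nuclei. Tshz1 had 1.39 in D1-like nuclei and -2.02 in D2-like nuclei. Col11a1 had 1.85 in D1-like nuclei and -1.69 in D2-like nuclei, where 2 Slc32a1-Cre nuclei gave all 401 reads. For 2 of these genes the D1-like over D2-like log2 ratio also had opposite signs in the 2 plates, again untested: Cacng5 had 3.57 in Oprm1-Cre and -0.56 in Slc32a1-Cre, and Col11a1 had 1.65 in Oprm1-Cre and -1.89 in Slc32a1-Cre. In Oprm1-Cre both of these genes reached 5 CPM through D1-like nuclei alone, and in Slc32a1-Cre Col11a1 did so through D2-like nuclei alone. The D2-like group of Oprm1-Cre holds only 23 nuclei and enters both comparisons. Outside the spiny nuclei, interneuron-marker nuclei held Otof at 83.5 CPM in Oprm1-Cre and 58.3 CPM in Slc32a1-Cre, and Cacng5 at 17.8 CPM in Oprm1-Cre, above the limit that a count of 0 allows.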

How the results depend on the processing

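No paired analysis was possible because each genotype is 1 sample and the wells of the plates carry no shared replicate. Counts of pairs at 2 or more times the product moved most. In Slc32a1-Cre the 6 pairs became 18 with wells of at least 100000 reads, and 19 with the 7 genes kept among those clustered, with each nucleus classed alone, or, chosen after seeing the data, with spiny-marker nuclei put in the classes by score. In Oprm1-Cre the 6 pairs became 3 with another seed and 3 with 2 reads as detection. The share of nuclei with 2 or more genes became 18.7% in D1-like nuclei of Oprm1-Cre without thinning and 9.43% with 2 reads as detection. For D2-like nuclei of Oprm1-Cre it became 0% with 2 reads as detection. For intermediate nuclei of Slc32a1-Cre it became 31.6% with each nucleus classed alone and 27.3% with spiny-marker nuclei added, and for spiny-marker nuclei of Oprm1-Cre 100% at 100000 reads. The 5 genes above 0.5 in D1-like nuclei became 3 with each nucleus classed alone and 3 with a pseudocount of 20 CPM. In D2-like nuclei 0 above 0.5 became 3 with a score limit of 1, and 1 with wells of at least 100000 reads or with the 7 genes kept among those clustered. In D1-like over D2-like of Slc32a1-Cre, 0 above became 1 with those last 2 settings and with each nucleus classed alone, which also left 1 below in place of 2. The Otof ratio in D1-like nuclei turned to -0.049 with wells of at least 100000 reads, -0.044 with the 7 genes clustered and -0.056 classed alone. That of Col11a1 in D2-like nuclei turned to 0.50 with wells of at least 100000 reads and 0.47 with the 7 genes clustered. The cause was not tested. Of the values for shares and counts under the alternatives, 21 moved beyond the main interval or by over 1.5 times. Few nuclei limit the D2-like and spiny-marker groups.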
